A study of Mus musculus with 4 samples.

Results

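The 7 globin genes Hbb-y, Hbb-bh1, Hbb-bt, Hbb-bs, Hba-x, Hba-a1, and Hba-a2 were followed through 4 XY single-cell libraries of mouse cells. They were selected by their gene symbol among the 31053 gene identifiers of the deposited matrices, and their values were read in all deposited cells. Of these libraries, 3 held gonadal cells of XY embryos of the ICR strain collected at E10.5, at E11.5, or at E12.5. The fourth held cells of XY embryonic stem cell (ESC) aggregates cultured to day 6 (D6). The E10.5 tissue included mesenchyme dorsal to the gonads, whereas that of the later stages was without mesonephros. The D6 cells came from 1 ESC line, labeled C57BL/6J and carrying Nr5a1-hCD271 and a Sox9 reporter of CGFP, and were enriched for hCD271 on magnetic columns. The study derived this line from a cross of 129X1/SvJ with a C57BL/6J transgenic, and hCD271 follows Nr5a1, a gene of the somatic gonad. How many embryos were pooled in each library was not given in the sources used here. Each condition had 1 library, so that no test between conditions was possible, and the intervals below, all at 95%, cover counting error only. Values given in threes without a stage follow the order of age, E10.5 before E11.5 before E12.5.

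Hemoglobin is a tetramer of alpha-like and beta-like globin chains, encoded in separate gene clusters on different chromosomes. In the mouse embryo, the primitive red cells that arise in the yolk sac use the embryonic chains and circulate while still nucleated, and adult chains predominate in the definitive red cells that the fetal liver then releases. Primitive cells mature in the bloodstream as a cohort, and within this cohort the use of the individual globin genes changes with time.

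On GRCm38, the beta-like genes lie on the minus strand of chromosome 7. Hbb-bt is at chr7:103812524-103813996, Hbb-bs at chr7:103826534-103828096, Hbb-bh1 at chr7:103841637-103843164, and Hbb-y at chr7:103851749-103853216. Hbb-y and Hbb-bh1 encode the embryonic beta-like chains, and Hbb-bt and Hbb-bs encode the adult ones. The alpha-like genes lie on the plus strand of chromosome 11, with Hba-x at chr11:32276400-32278116, Hba-a1 at chr11:32283511-32284465, and Hba-a2 at chr11:32296489-32297298. Hba-x encodes the embryonic zeta chain, and Hba-a1 and Hba-a2 encode the adult alpha chain. All 7 genes have 3 exons.

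The promoters of an embryonic and an adult gene of each cluster are shown because the comparisons below set these genes against each other. Each line gives the 150 bases before the RefSeq start on GRCm38.p6, read 5′ to 3′ on the strand of the gene, and capitals mark matches of CCAAT, of CACCC, of AGATAA, and of TATAAA or its part ATAAA on either strand. The windows are chr7:103853208-103853357 for Hbb-y, chr7:103827929-103828078 for Hbb-bs, chr11:32276450-32276599 for Hba-x, and chr11:32283522-32283671 for Hba-a1.
Hbb-y: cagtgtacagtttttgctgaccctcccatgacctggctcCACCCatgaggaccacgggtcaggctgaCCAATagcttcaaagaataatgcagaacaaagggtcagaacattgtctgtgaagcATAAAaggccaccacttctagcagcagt
Hbb-bs: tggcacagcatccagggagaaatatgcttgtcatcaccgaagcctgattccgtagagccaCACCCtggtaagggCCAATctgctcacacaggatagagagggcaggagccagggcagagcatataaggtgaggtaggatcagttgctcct
Hba-x: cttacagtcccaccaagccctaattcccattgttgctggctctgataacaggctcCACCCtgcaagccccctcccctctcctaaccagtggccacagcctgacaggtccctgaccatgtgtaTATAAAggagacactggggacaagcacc
Hba-a1: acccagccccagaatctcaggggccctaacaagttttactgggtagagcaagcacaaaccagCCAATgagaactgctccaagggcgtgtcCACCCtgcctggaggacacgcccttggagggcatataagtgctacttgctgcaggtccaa
CACCC occurred in each of the 4 windows, at −111 in Hbb-y, −90 in Hbb-bs, −95 in Hba-x, and −60 in Hba-a1, counted back from the start. CCAAT lay at −83 in Hbb-y, −76 in Hbb-bs, and −88 in Hba-a1, and these letters were not in the window of Hba-x. TATAAA, which contains ATAAA, began at −28 in Hba-x, and ATAAA alone began at −28 in Hbb-y. These motifs are short, and among the last 150 bases of the 32851 RefSeq promoters examined, 37.4% held CACCC, 24.5% CCAAT, 24.1% ATAAA, 7.57% TATAAA, and 5.65% AGATAA. GENCODE places the 5′ end of these genes farther upstream than RefSeq, by 9 bases for Hbb-y, 161 for Hba-a1, 168 for Hbb-bs, and 200 for Hba-x. The promoters of Hba-a1 and Hba-a2 shared a run of 247 of 250 bases, whereas the longest run shared by those of Hbb-bt and Hbb-bs was 14 bases. Hbb-bh1 had no entry in the promoter table.

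Counts of unique molecular identifiers (UMIs), which mark the individual captured transcripts, were read at the 3′ end, so that shares of UMIs are not scaled by gene length. Transcripts of nearly identical genes are hard to tell apart by this method. The coding sequences of Hbb-bt and Hbb-bs were identical at 440 of 441 bases and those of Hba-a1 and Hba-a2 at 425 of 426. In the last 400 bases of the transcripts, 48.6% of the 90-base windows of Hbb-bt also occurred in Hbb-bs, and 71.1% of those of Hba-a1 in Hba-a2, whereas Hbb-y, Hbb-bh1, and Hba-x shared no such window with another member. The sums Hbb-bt plus Hbb-bs and Hba-a1 plus Hba-a2 are therefore firmer than the split within each, also because the reference genome is not of the ICR strain.

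The libraries held 4473, 2449, and 3176 cells in vivo and 2441 cells at D6, with 40199985, 32519441, and 42242194 UMIs in vivo and 13965107 at D6. Cells in which the 7 globins made up at least 20% of UMIs were taken as erythroid. There were 61 such cells at E10.5 (1.36%, exact binomial interval 1.04 to 1.75%), 23 at E11.5 (0.939%, 0.596 to 1.41%), and then 46 at E12.5 (1.45%, 1.06 to 1.93%). At D6, 0 of 2441 cells passed, and with 3 cells taken as the limit this allows up to 0.123%. The nearest cells outside the limit were at 14.1%, 15.7%, and 16.0% globin, and the nearest inside were at 25.9%, 38.5%, and 63.3%. Few cell barcodes recurred between the in vivo libraries, with 12 shared by E10.5 and E11.5, 19 by E10.5 and E12.5, and 10 by E11.5 and E12.5. Of these, 0 were erythroid in both libraries. With D6, 0 were shared, but D6 was made with another version of the kit, so this count is not comparable. No doublet caller was run.

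The erythroid cells were checked against markers other than globins. The summed level of the 9 erythroid markers measured, among them Alas2 and Slc4a1, was 6853, 9170, and 11889 UMIs per 1000000 UMIs outside the globins in the erythroid cells, a scale given below as CPM outside the globins. In the other cells of these libraries, it was 4.46, 7.09, and 7.68. All 9 markers were detected in the erythroid cells of each stage, and at least 3 of them in 56 of 61, 21 of 23, and 36 of 46 cells. The 9 macrophage markers were at 0 in all 3 groups. At least 3 of the 12 gonadal somatic markers were found in 3, 1, and 0 erythroid cells.

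Globin load and the number of UMIs outside the globins differed between stages. At E10.5, globins made up 25.9% to 73.2% of UMIs in an erythroid cell, with a median of 53.6%. The range was 38.5% to 87.0% at E11.5, with a median of 80.7%, and 63.3% to 96.6% at E12.5, with a median of 89.9%. The median number of detected genes was 1999 (157 to 5501) at the youngest stage, then 896 (339 to 4405), and then 450 (91 to 2215). Total UMIs per erythroid cell had medians of 16182, 15480, and 12622.5, but UMIs outside the globins had medians of 7430, 2791, and 1204.5. Globins thus took a larger part of the UMIs of a cell at the later stages and other genes a smaller one, and the ranges of the stages overlapped. The study's own limits on detected genes and mitochondrial UMIs would have retained 51 of 61, 21 of 23, and 1 of 46 of these cells, because 45 of the E12.5 cells had no more than 2000 genes. The E12.5 values below therefore describe cells that mostly lie outside those limits.

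**Figure D1:**
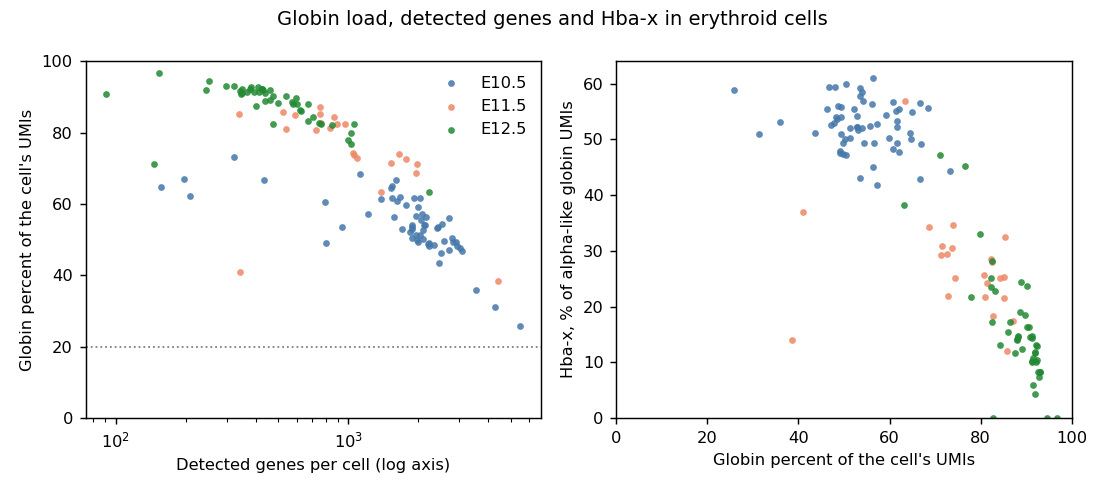
Each point is an erythroid cell, colored by stage. The left panel plots the number of detected genes (log axis) against the percentage of UMIs in the 7 globins, with the 20% limit as a dotted line, and the right panel plots the globin percentage against the percentage of Hba-x in alpha-like UMIs; cells of E12.5 lie at the highest globin percentages, with a median of 89.9%, and the lowest gene numbers, with a median of 450.

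Hbb-y, the embryonic epsilon-type gene, was the most abundant globin at each stage. Its UMIs numbered 237437, 131247, and 243277, of 513296, 252052, and 490672 globin UMIs in erythroid cells. This corresponds to 46.3% (46.1 to 46.4%), 52.1% (51.9 to 52.3%), and 49.6% (49.4 to 49.7%) of globin UMIs. The median cell held 45.9%, 52.2%, and 52.4%. Hbb-y thus stayed near the middle of the globin pool while the genes around it changed place. Among the 61 cells of E10.5, its share ranged only from 42.7% to 54.6%, and among those of E11.5 from 46.1% to 59.8%. At E12.5, the range was 0 to 59.9%, the lower end being set by 3 cells described below, without which the summed share was 52.5%.

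Hbb-bh1, the other embryonic beta-like gene, was lower at each later stage. It had 83482, 8855, and 6274 UMIs, or 16.3% (16.2 to 16.4%), 3.51% (3.44 to 3.59%), and 1.28% (1.25 to 1.31%) of globin UMIs. As a share of embryonic beta-like UMIs, that is Hbb-bh1 over Hbb-bh1 plus Hbb-y, it was 26.0% (25.9 to 26.2%), 6.32% (6.19 to 6.45%), and 2.51% (2.45 to 2.58%). Cells of E10.5 and E11.5 hardly overlapped in this measure. All 61 cells of E10.5 lay between 18.1% and 34.0%, with a median of 26.5%. At E11.5, the lowest, median, and highest cells were at 2.78%, 6.59%, and 26.6%, and the highest, a cell of 1152 UMIs, was the only one of 23 at or above 10%. At E12.5, the 44 cells with at least 1 embryonic beta-like UMI lay between 0 and 15.7%, with a median of 1.84%, and 1 of them was at or above 10%. E11.5 and E12.5 overlapped over most of their range.

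Hba-x, the embryonic zeta-type gene of the alpha cluster, was likewise lower at each later stage. Its UMIs numbered 101108, 25456, and 28692, or 19.7%, 10.1%, and 5.85% of globin UMIs. Among alpha-like UMIs, Hba-x accounted for 53.4% (53.2 to 53.7%), 26.6% (26.3 to 26.9%), and 15.3% (15.1 to 15.4%). The cells ranged from 41.7% to 61.0% around a median of 52.5% at E10.5, from 12.0% to 57.0% around 25.6% at E11.5, and from 0 to 47.2% around 14.3% at E12.5. A share of at least 40% was found in 61 of 61, 1 of 23, and 2 of 46 cells. Thus, the E10.5 cells again stood together, and the later stages held few cells like them.

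Hba-a1 and Hba-a2, the adult alpha genes, took the place of Hba-x within the alpha-like pool. Hba-a1 had 77282, 60823, and 141367 UMIs, or 15.1%, 24.1%, and 28.8% of globin UMIs. Hba-a2 had 10805, 9507, and 17643 UMIs, or 2.11%, 3.77%, and 3.60%. The adult alpha genes were already abundant at E10.5, in contrast to the adult beta-like genes, and at least 1 UMI of each was present in every erythroid cell of the 3 libraries. Hba-a2 made up 12.3%, 13.5%, and 11.1% of adult alpha UMIs, and its share in the cells ranged from 8.66% to 19.5%, from 7.34% to 16.9%, and from 8.08% to 13.5%. Hba-a1 was therefore assigned more UMIs than Hba-a2 in every erythroid cell, although most 3′ windows of these genes cannot be told apart. The balance of the clusters moved little, since alpha-like genes together held 36.9%, 38.0%, and 38.3% of globin UMIs.

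Hbb-bt and Hbb-bs, the adult beta-like genes, were scarce at E10.5 and more abundant later. Hbb-bt had 1621, 6631, and 11006 UMIs, or 0.316%, 2.63%, and 2.24% of globin UMIs. Hbb-bs had 1561, 9533, and 42413 UMIs, or 0.304%, 3.78%, and 8.64%. Together they made up 0.982% (0.948 to 1.02%), 10.34% (10.19 to 10.496%), and 17.6% (17.5 to 17.8%) of beta-like UMIs. At E10.5, the cells lay between 0.0252% and 3.28%, with a median of 0.751%, so that no cell of this stage reached 5%. The lowest, median, and highest cells were at 1.00%, 10.9%, and 19.3% at E11.5 and at 0.318%, 13.6%, and 100% at E12.5. At least 5% was reached by 18 of 23 cells of E11.5 and 44 of 46 cells of E12.5, and at least 10% by 13 and 29. The E11.5 and E12.5 cells overlapped widely. Without the 3 cells of E12.5 that held almost no embryonic globin, the summed share of that stage was 12.9%.

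**Figure D2:**
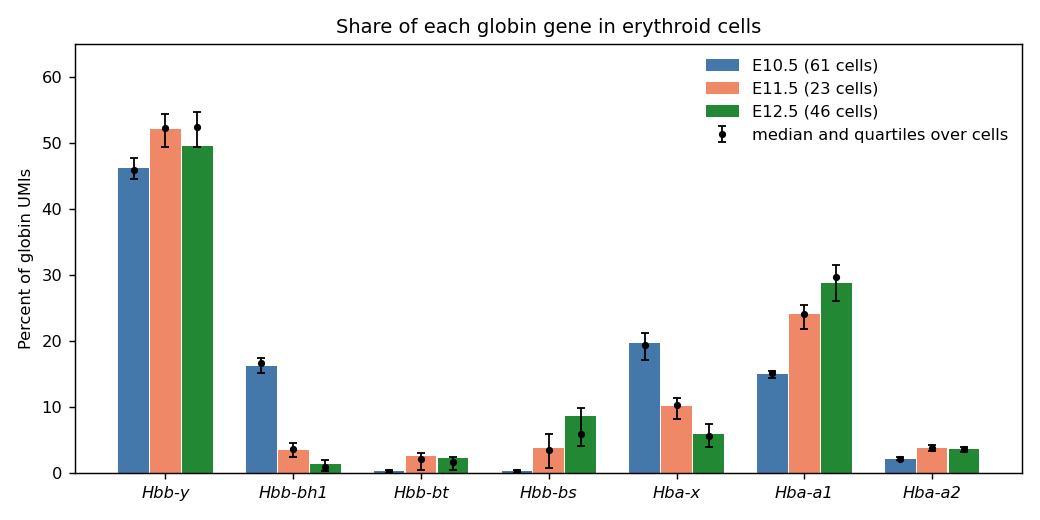
Bars give the percentage of all globin UMIs held by each of the 7 genes in the erythroid cells of the 3 in vivo stages, and black points with lines give the median and quartiles over cells. Hbb-y stays near the middle of the pool at 46.3%, 52.1%, and 49.6%, Hbb-bh1 and Hba-x are lower at each later stage, and Hba-a1 and Hbb-bs are higher.

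Embryonic and adult beta-like transcripts were found in the same cells. At least 1 UMI of each kind was present in 61 of 61, 23 of 23, and 44 of 46 cells. Of these 44 cells, 1 held a single embryonic beta-like UMI, of Hbb-y. At E12.5, 41.0% of cells under 1% globin also had a UMI of this gene. By gene, Hbb-bt was detected in 57, 22, and 44 erythroid cells, and Hbb-bs in 55, 23, and 45. The rarity of adult beta-like UMIs at E10.5 was thus a low level in nearly all cells and not a high level in a few. The cell with most at E10.5 held 3.28% of its beta-like UMIs in the adult genes.

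**Figure D3:**
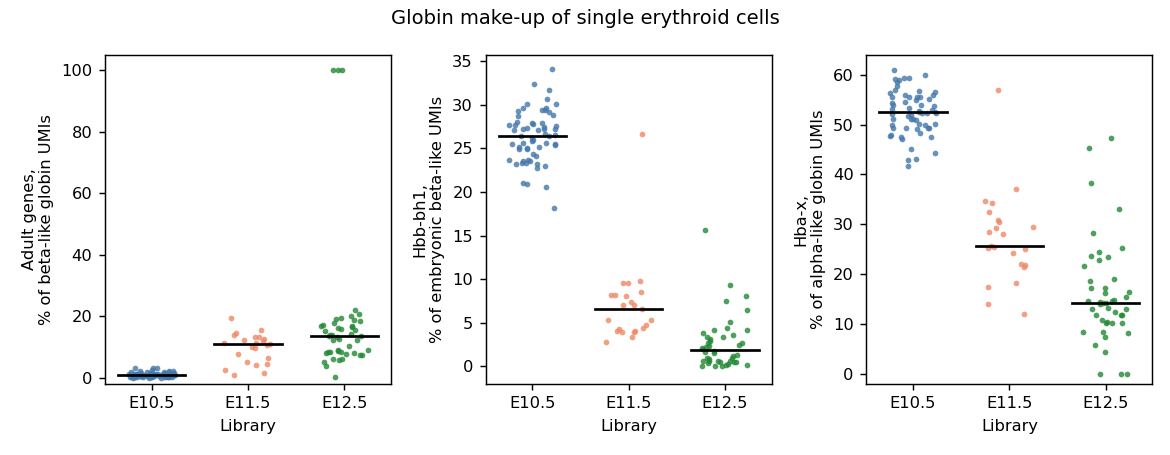
Each point is an erythroid cell, placed by stage, and the black line is the median. The panels give the adult percentage of beta-like UMIs, the Hbb-bh1 percentage of embryonic beta-like UMIs, and the Hba-x percentage of alpha-like UMIs; all 61 cells of E10.5 lie at or below 3.28% in the left panel and at or above 41.7% in the right panel, and 3 cells of E12.5 lie at or near 100% in the left panel.

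The 3 cells of E12.5 with at most 1 embryonic beta-like UMI also had at most 1 UMI of Hba-x. The cell of them with the most UMIs, 12118, held 2196 of Hbb-bt, 4798 of Hbb-bs, 3892 of Hba-a1, and 571 of Hba-a2, with 1 of Hba-x and 0 of Hbb-y and Hbb-bh1. Another held 8961 UMIs, with 1114 of Hbb-bt, 3180 of Hbb-bs, 2806 of Hba-a1, 318 of Hba-a2, 1 of Hbb-y, and 0 of Hbb-bh1 and Hba-x. The remaining cell held 8443 UMIs, with 842 of Hbb-bt, 4250 of Hbb-bs, 2758 of Hba-a1, 310 of Hba-a2, and 0 of the embryonic genes. These cells thus carried an almost purely adult globin set in both clusters at once, whereas the other 43 cells carried mixed sets. They were chosen by these values, which are a description. Of their 2485 UMIs outside the globins, 48 were of Alas2, the rate-limiting enzyme of erythroid heme synthesis, or 19316 CPM (14242 to 25610), compared with 6127 (5550 to 6748) in the other 43 cells of E12.5. Ferritin heavy chain, Fth1, stood the other way, at 49497 (41137 to 59057) and 67443 (65494 to 69435).

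A cell with a similar globin set but a lower load lay below the 20% limit at E12.5, with 21239 UMIs, 5.20% globin, 132 UMIs of Hbb-bt, 556 of Hbb-bs, 45 of Hbb-y, 0 of Hbb-bh1 and Hba-x, and 7 of the 9 erythroid markers. At E10.5, a cell of 3425 UMIs and 4.91% globin held 72 UMIs of Hbb-bt, 0 of Hbb-bs, 83 of Hba-a1, 3 of Hbb-y, and 0 of Hba-x, with 1 erythroid marker. Its adult share of beta-like UMIs, 96.0%, was far above that of the 61 erythroid cells of its library. Whether such a barcode held more than 1 cell was not tested.

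Within a stage, the embryonic genes of the separate clusters differed in whether they varied together across cells. Among the 44 cells of E12.5 with embryonic beta-like UMIs, the Hbb-bh1 share of embryonic beta-like UMIs and the Hba-x share of alpha-like UMIs had a Spearman rho of 0.654. It was 0.205 among the 23 cells of E11.5 and −0.229 among the 61 cells of E10.5. At E12.5, cells with a higher globin percentage had lower Hba-x shares, with a rho of −0.754, and lower Hbb-bh1 shares, with a rho of −0.504. For Hba-x, the rho was −0.493 at E11.5 and −0.185 at E10.5, and for Hbb-bh1 it was 0.158 and −0.173. The points are cells of the same library and share its depth and free RNA, so these coefficients are descriptions. The E12.5 cell with the fewest UMIs, 620, and the E12.5 cell with the most detected genes, 2215, were among the 3 cells with the highest Hba-x shares of that stage, at 47.2% and 38.2%, and Hbb-bh1 shares of 15.7% and 7.48%.

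The split between Hbb-bt and Hbb-bs varied strongly from cell to cell. Hbb-bs made up 49.1%, 59.0%, and 79.4% of adult beta-like UMIs, but few cells matched these sums. At E11.5, a cell held 403 UMIs of Hbb-bt and 4 of Hbb-bs, and another held 985 and 44. In contrast, a cell of the same library held 8 of Hbb-bt and 561 of Hbb-bs, and another held 73 and 1226. Among cells with at least 20 adult beta-like UMIs, Hbb-bs was under 10% in 10 of 43, 4 of 22, and 0 of 45. It was over 90% in 8 of 43, 6 of 22, and 16 of 45. UMIs were therefore assigned to both genes side by side, with Hbb-bs at 10 to 90%, in 25, 12, and 29 cells, and mostly to 1 of them in the others. This count was chosen after the values were seen. The ICR strain is outbred, and the cells were not assigned to embryos or to alleles.

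Globin transcripts were also found in the other cells of the in vivo libraries. In cells under 1% globin, they are read as free RNA that enters droplets during cell capture, and this reading was not tested for single cells. At E12.5, 1 of these cells held 105 UMIs of Hbb-bs and 2 of Hbb-y among 202 globin UMIs. Another held 300 of Hba-a1 among 551. Erythroid cells held 99.3%, 94.5%, and 97.1% of all globin UMIs. The remaining 3823, 14771, and 14536 UMIs amounted to 97.5 (exact Poisson interval 94.5 to 101), 459 (452 to 467), and 349 (343 to 354) UMIs per 1000000 UMIs (CPM) in cells under 20% globin. Much of this lay in a few cells. Cells between 1% and 20% globin numbered 4, 2, and 5, and held 786, 10665, and 10319 of these UMIs. The largest of them had 53196 UMIs and 15.7% globin at E11.5 and 53414 UMIs and 16.0% globin at E12.5, against medians of 12266.5 and 11057.5 UMIs in the other cells of these libraries. These 2 cells held 9 and 6 of the 9 erythroid markers, and the part of free RNA in their globin UMIs was not tested. In cells under 1% globin, the level was 77.5, 128, and 101 CPM.

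At D6, 0 of 13965107 UMIs belonged to any of the 7 globins, which allows up to 0.215 CPM. The D6 cells had fewer UMIs, with a median of 4694, but with each cell thinned to 2000 UMIs, 13.4%, 25.0%, and 15.7% of the other cells in vivo had a globin UMI, and again 0 at D6. Unthinned, the shares were 43.6%, 76.7%, and 62.8%. Thinning left out 263, 319, and 67 cells in vivo and 52 at D6 with fewer UMIs. The gonadal somatic markers were well represented at D6, with at least 3 of them in 2190 of 2441 cells. Cells with these markers had 0 globin UMIs at D6, which is taken here as the library without blood. Of the 9 erythroid markers, 5 were detected at D6, together at 4.22 CPM outside the globins. This lay near the 4.46, 7.09, and 7.68 of the other cells in vivo. Alas2, Slc4a1, Rhag, and Epb42 had 0 UMIs at D6, and 0 cells held at least 3 of the markers. The kit, strain, and culture of D6 differed from the in vivo libraries and cannot be told apart from the absence of blood.

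The level in the other cells was compared between cells under 1% globin with at least 3 markers of 1 list and fewer of the other lists. By these markers alone, they are called somatic, germ, and endothelial cells below. At E11.5, those with somatic markers had 123 (119 to 127) CPM of globins, those with germ cell markers 122 (109 to 136), and those with endothelial markers 176 (145 to 212), or 91.8 without 1 cell that held 57 of their 111 globin UMIs. At E12.5, the values were 84.8 (81.4 to 88.2), 72.5 (66.8 to 78.5), and 96.8 (77.9 to 119), so that germ cells were below somatic cells in CPM beyond counting error. The germ cells were deeper, with a median of 18564 UMIs against 10106 in somatic cells, and 72.3% against 60.7% of them had a globin UMI. The part of depth in this difference was not tested. At E10.5, they were 74.8 (71.5 to 78.3) in somatic and 91.1 (76.0 to 108) in endothelial cells, and 10 cells with germ cell markers held 9 globin UMIs. Cells with at least 3 markers of none of these lists stood apart at E11.5, where 297 of them, with a median of 989 UMIs, had 606 (542 to 675). At E12.5, 81 such cells, with a median of 1198 UMIs, had 788 (691 to 894), of whose 239 globin UMIs 202 lay in 1 cell, without which the level was 133. The adult share of beta-like UMIs was 14.6% (13.0 to 16.2%) in somatic and 17.4% (12.7 to 23.0%) in germ cells at E11.5, and 21.7% (19.7 to 23.8%) and 17.8% (14.1 to 22.0%) at E12.5. These intervals overlapped between somatic and germ cells of a stage. A globin UMI in a gonadal cell of these libraries is read here as background.

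The composition of this background followed the stage, with departures for some genes. In cells under 1% globin, the adult share of beta-like UMIs was 2.44% (1.82 to 3.20%), 14.5% (13.2 to 15.9%), and 23.7% (22.1 to 25.4%), somewhat above the 0.982%, 10.3%, and 17.6% of the erythroid cells. The Hbb-bh1 share of embryonic beta-like UMIs was 21.8%, 4.94%, and 2.39%, below that of the erythroid cells by more than the counting error at E10.5 and E11.5. For Hba-x among alpha-like UMIs, the shares were 48.2%, 23.2%, and 7.66% (6.40 to 9.09%), the last against 15.3% in erythroid cells. In cells under 1% globin, the adult beta-like and Hba-x shares thus departed from those of the erythroid cells beyond counting error at each stage. Over all cells under 20% globin, the adult beta-like share was 6.60%, 9.75% (9.16 to 10.4%), and 23.8%. The Hba-x share was 44.1%, 20.5%, and 16.1% (15.1 to 17.1%). Only the adult interval at E11.5 and the Hba-x interval at E12.5 held the value of the erythroid cells. At these stages, cells between 1% and 20% globin held 10665 of 14771 and 10319 of 14536 of these globin UMIs. At E12.5, 2 cells under 1% globin held 551 and 202 globin UMIs, and without them the adult beta-like share was 20.8% (19.2 to 22.5%) and that of Hba-x 10.1% (8.46 to 12.0%). Hba-a2 stood out, since it made up 36.8% (32.6 to 41.1%), 25.9% (23.3 to 28.6%), and 24.4% (22.2 to 26.7%) of adult alpha UMIs in these cells, against 12.3%, 13.5%, and 11.1% in erythroid cells.

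**Figure D4:**
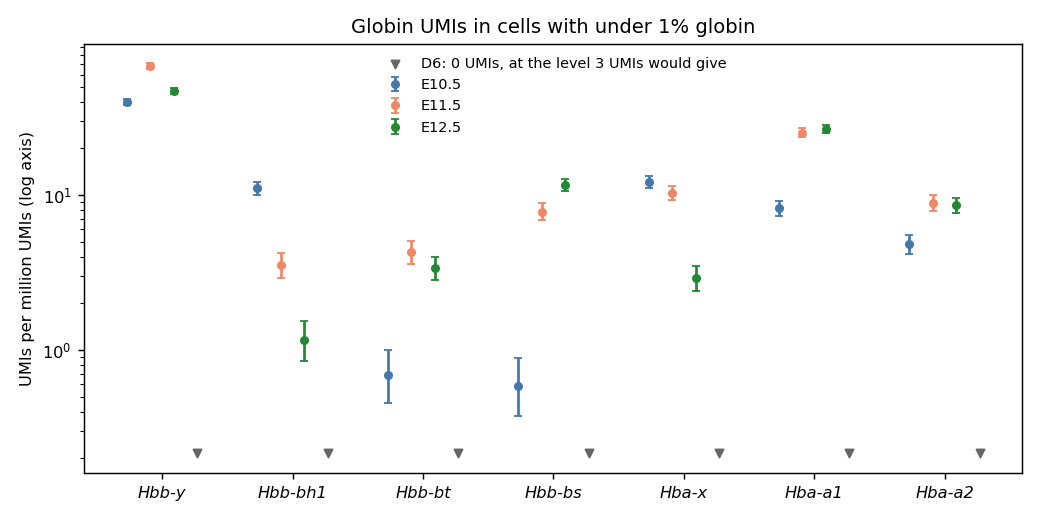
Points give the CPM (log axis) of each of the 7 globin genes in cells under 1% globin of the in vivo stages, with exact Poisson intervals, and triangles give the level that 3 UMIs would have at D6, where all 7 genes had 0. Hbb-y is the highest in each in vivo library, at 39.9, 67.8, and 47.3 CPM, and the triangles lie at 0.215 CPM.

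Gene by gene, Hbb-y was at 39.9, 67.8, and 47.3 CPM in cells under 1% globin. Hbb-bh1 stood at 11.1, 3.52, and 1.16, and Hba-x at 12.1, 10.3, and 2.91. The adult genes ran the other way, with Hba-a1 at 8.24, 25.3, and 26.5 and Hbb-bs at 0.587, 7.82, and 11.7. Hbb-bt was at 0.689, 4.30, and 3.37 and Hba-a2 at 4.80, 8.85, and 8.57. For all 7 genes, the order of the stages in these levels was that of the gene's share of globin UMIs in erythroid cells. The intervals overlapped between E11.5 and E12.5 for Hba-a1, Hba-a2, and Hbb-bt, and between E10.5 and E11.5 for Hba-x. At E12.5, 300 of the 1102 Hba-a1 UMIs lay in 1 cell. Without the 2 cells with the most globin UMIs, Hba-a1 had 793 of 32032757 UMIs at E11.5 and 743 of 41459060 at E12.5. This turned the order of these stages for Hba-a1. In erythroid cells, their order for Hbb-y turned without the 3 cells of adult globins.

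The genes whose level across all cells was most like that of the summed globins were sought among the 11227 genes with at least 50 UMIs in each in vivo library. Likeness was the Pearson correlation of log-transformed UMIs per 10000, averaged over the 3 libraries. Outside the members, Alas2 led with 0.764, before Car2, a carbonic anhydrase, with 0.699, and Slc4a1, the anion exchanger of the red cell membrane, with 0.694. Trim10 (0.630), Pdzk1ip1 (0.603), Ncf4 (0.595), Rhd (0.569), Hsd3b6 (0.525), and Slc25a37 (0.466) followed. The r of the separate libraries ranged from 0.311 for Hsd3b6 at E10.5 to 0.828 for Alas2 at E12.5. The cells of a library are not independent replicates, so these are descriptions.

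The genes of 8 lists that concern red cells were then compared between erythroid and other cells of the same library, in CPM outside the globins. A gene was tested with at least 20 UMIs in the 2 groups together and counted as higher or lower past 2-fold. Since the cells were chosen by their globin, these counts are descriptions. Of the genes tested on all 8 lists, 60 of 91, 57 of 87, and 54 of 91 were higher, where 5.13%, 5.1%, and 4.11% of all genes tested were. Of all genes past 2-fold, 15.9%, 28.5%, and 24.4% were higher and the others lower. With the counts scaled to all UMIs, these shares were 3.78%, 2.98%, and 1.64%, and 48, 43, and 37 list genes were higher. With TMM factors, which assume that most genes do not differ, they were 28.1%, 32.6%, and 33.1%.

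Genes of heme synthesis and iron handling were higher in erythroid cells in 16 of 17, 15 of 17, and 16 of 17 cases, and in 13, 15, and 9 when scaled to all UMIs. Alas2 was at 2506, 3885, and 6597 CPM outside the globins in erythroid cells and at 0.153, 1.27, and 1.32 in other cells. Fech, which inserts iron into protoporphyrin, was at 1044, 1971, and 2668, against 16.5, 22.0, and 19.8. Membrane and cytoskeleton genes were higher in 15 of 15, 14 of 15, and 14 of 16 cases, and in 14, 13, and 13 on all UMIs. Slc4a1 was at 417, 985, and 990 CPM outside the globins, against 0.0255, 0.218, and 0.0720. Red cell enzymes were higher in 8 of 9, 7 of 8, and 7 of 9 cases, or 6, 5, and 5 on all UMIs, among them Bpgm, which makes the 2,3-bisphosphoglycerate that lowers the oxygen affinity of hemoglobin.

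Regulators of globin genes were split. Of those tested, 8 of 17, 6 of 15, and 6 of 16 were higher in erythroid cells, and 3, 1, and 1 were lower, where 27.1%, 12.8%, and 12.7% of all genes tested were. On all UMIs, 8, 4, and 4 were higher and 6 were lower at each stage. Of all 13670, 13685, and 14095 genes tested, 298, 200, and 132 were then higher and 7595, 6521, and 7914 lower. Klf1, an activator that binds CACCC motifs, was at 580, 314, and 344 CPM outside the globins, and Gata1, the erythroid GATA factor, at 156, 168, and 86.0. Bcl11a and Sox6, which silence embryonic globin genes in definitive cells, had 2, 0, and 0 and 0, 1, and 3 UMIs in all erythroid cells of a stage. The 3 UMIs of Sox6 at E12.5 lay in 1 of the 3 cells with almost purely adult globins, and the other 43 cells had 0. Lin28b, a fetal-stage RNA-binding protein, had 2, 0, and 0, and Myb, a gene of definitive progenitors, had 0 at each stage. A count of 0 allows up to 6.17, 33.6, and 43.0 CPM outside the globins, so that low levels of these repressors were not detectable at this depth.

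Of the other globin-like genes, Hbq1b, a theta-type gene between Hba-a1 and Hba-a2, had 38, 14, and 27 UMIs in erythroid cells, or 78.1, 157, and 387 CPM outside the globins. At E12.5, it was 4.96-fold (2.91 to 8.34) its level of E10.5, or 1.27-fold when scaled to all UMIs. Hbq1a had 2, 6, and 11 UMIs and Hbb-bh2 had 2, 1, and 2, each far below every one of the 7 members. Ahsp and Hbb-bh0 were not analysed here.

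Erythroid cells of the later stages were set against those of E10.5 on the same scale, on 486481, 89313, and 69727 UMIs outside the globins. At E11.5, 15 of 70 list genes tested were higher and 6 lower, where 10.1% of all 3036 genes tested were higher and 21.6% lower, and the median ratio of the lists was 1.34 against 0.851 over all genes. At E12.5, 22 of 69 were higher and 18 lower, where 10.6% of all 2918 genes were higher and 36.9% lower, and the medians were 1.23 and 0.567. These counts rest on the scaling, since with all UMIs as the base 1 list gene was higher and 20 lower at E11.5 and 2 higher and 47 lower at E12.5. Of all genes past 2-fold, 32.0% were higher at E11.5 and 22.3% at E12.5, which became 3.24% and 1.10% on all UMIs and 19.8% and 19.4% with TMM factors. A further count left out the erythroid cells with at least 3 somatic markers, 3 from E10.5 and 1 from E11.5. At E11.5, 24 list genes were then higher and 6 lower, where 300 of all genes tested were higher and 663 lower. The UMIs outside the globins of E11.5 numbered 69519 without that cell, against 89313 with it.

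Of the red cell enzymes, 6 of 7 were higher and 1 was lower at E12.5 relative to the other transcripts outside the globins, and on all UMIs 0 and 1. Bpgm was at 923, 1926, and 4704 CPM outside the globins, a ratio of 5.10 (4.41 to 5.89) between E12.5 and E10.5, or 1.30 on all UMIs. Bnip3l, a receptor for the removal of mitochondria, was at 473, 1534, and 4518, a ratio of 9.56 (8.04 to 11.4), or 2.44 on all UMIs. In the heme and iron list, the ferritin genes Fth1 and Ftl1 had ratios of 4.02 (3.88 to 4.17) and 4.52 (4.35 to 4.69), or 1.03 and 1.15 on all UMIs. Of the clearance list, 4 of 5 genes were higher at E12.5 and 2 of 5 at E11.5, and on all UMIs 1 and 0. Bcl2l1, a survival gene downstream of erythropoietin, had a ratio of 11.7 (6.98 to 20.1), or 3.00 on all UMIs.

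Heme synthesis was uneven. Alas2 had a ratio of 2.63 (2.36 to 2.93) between E12.5 and E10.5 and Fech of 2.55 (2.15 to 3.03), whereas Alad had 0.488 (0.399 to 0.590), Cpox 0.356 (0.232 to 0.524), and Ppox 0.388 (0.123 to 0.938). The list held 4 genes higher and 3 lower at E12.5, and on all UMIs 0 and 11, with Alas2 at 0.673. Of the membrane list, 4 of 15 were higher and 0 lower at either stage, and on all UMIs 0 were higher and 11 lower at E12.5. On all UMIs, 2596 of all 2918 genes tested were lower at E12.5. Epb41, the protein 4.1 of the membrane skeleton, stood at 107, 336, and 717 CPM outside the globins.

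Cell cycle genes were lower at E12.5 under each scaling. Past 2-fold were 12 of 13 in UMIs outside the globins, 12 with TMM factors, and 13 on all UMIs. Of all 2918 genes tested, 1076, 1167, and 2596 were lower under these scalings, so that on all UMIs most genes were lower. Hmgb2 was at 1018 CPM at E10.5 and 215 at E12.5, Tyms, an enzyme of nucleotide synthesis, had 146 UMIs at E10.5 and 1 at E12.5 (ratio 0.0478, 0.0012 to 0.270), and Pcna, the sliding clamp of replication, had 81 and 0. Mki67 had a ratio of 0.470 (0.239 to 0.842). At E12.5, its UMIs lay in few cells, 5 in 1 of the 3 cells of adult globins and 7 in 2 of the other 43. Those of Hmgb2 lay 6 in 1 and 9 in 3 cells of these groups. At E11.5, the list was mixed, since the replication genes Mcm2, Mcm5, Pcna, and Rrm2 were lower and the mitotic genes Ccna2 and Ccnb1 were higher, with ratios of 2.36 (1.65 to 3.33) and 2.40 (1.64 to 3.45). On all UMIs, Ccna2 and Ccnb1 had ratios of 1.27 and 1.29.

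**Figure D5:**
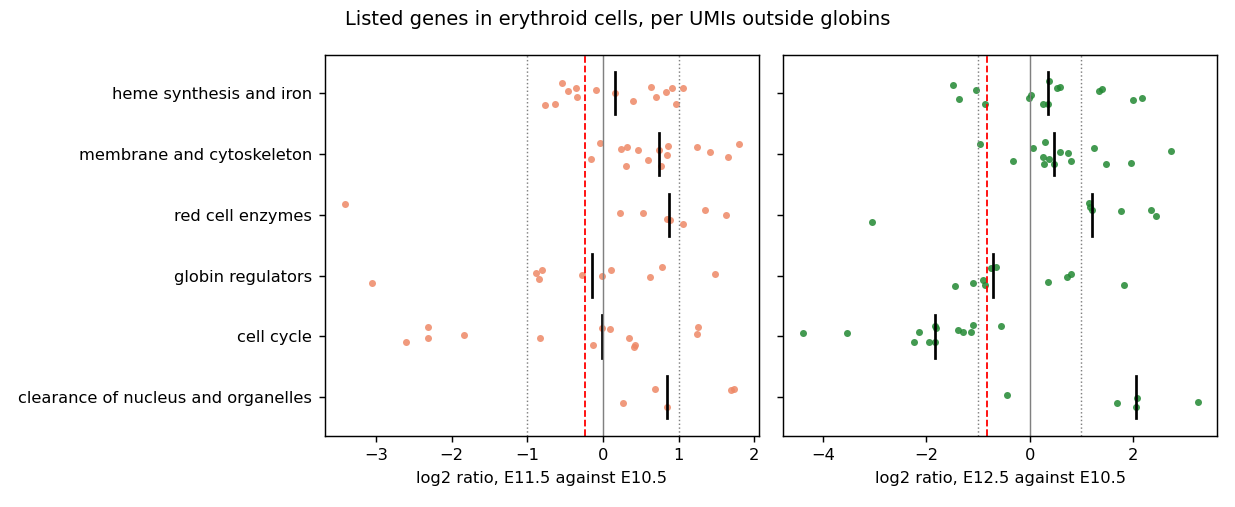
Each point is a gene of 6 lists, placed by the log2 ratio of its CPM outside the globins in erythroid cells of E11.5 or E12.5 to those of E10.5. Black bars are list medians, dotted lines mark 2-fold, and the red dashed line is the median of all genes tested. Pcna at E12.5, with 0 UMIs, stands at the level of 3 UMIs. At E12.5, 12 of 13 cell cycle genes lie past 2-fold lower, where 36.9% of all genes tested do. The higher ratios of the enzyme and clearance lists shrink to 0 and 1 genes past 2-fold when scaled to all UMIs.

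Among all genes with at least 50 UMIs in the 2 groups, the 5 largest ratios in the higher direction at either stage fell on genes outside the lists. Hsd3b6, which also ranked among the genes most like the globins, was at 214, 1982, and 6368 CPM outside the globins, a ratio of 29.8 at E12.5, or 7.62 on all UMIs. Ypel5 had a ratio of 29.8 (15.2 to 63.7), with 11 UMIs at E10.5, Ypel3 of 23.3, Fam46c of 16.7, and Malat1 of 13.9 at E12.5. On all UMIs, these 4 ratios were 7.62, 5.97, 4.28, and 3.56. At E11.5, Ypel3 (11.7), Lockd (11.6), Hsd3b6 (9.27), Slc48a1, a heme transporter (6.10), and Sparc (6.05) led. In the same order, their ratios on all UMIs were 6.31, 6.22, 4.98, 3.28, and 3.25. Sparc had 30 UMIs in erythroid cells of E11.5 and was also at 1469 CPM in other cells of that stage. The parts of free RNA and of the E11.5 cell with at least 3 somatic markers in the value of Sparc were not tested. At the lower end of E12.5, Ldha, the lactate dehydrogenase subunit, had 301 UMIs at E10.5 and 1 at E12.5, and Ybx1, an RNA-binding protein, had 918 and 7. Other genes at the lower end, Tyms of the cell cycle list, Lsm5, and Lsm2 at E12.5 and Mcm6, Mrap, Fen1, and Mcm3 at E11.5, each had 1 UMI at the later stage.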

How the data were processed

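The authors deposited, for each library, a matrix of UMI counts per gene and cell barcode, without normalization. Per the labels, reads were mapped to mm10 with Cell Ranger 3.0.2, whereas the file headers name Cell Ranger 6.0.0. The 3′ reagent kit was of version 2 for the in vivo libraries and of version 3 for D6. Every deposited barcode was used, and doublets were not called. The members and lists were chosen with earlier results of these data known.

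Cells were grouped by library from the labels and divided at 20% globin UMIs. Shares carry exact Clopper-Pearson intervals and levels exact Poisson intervals at 95%. A count of 0 was taken to allow 3 counts, and ratios against a group with 0 UMIs were computed with 3. Ratios were scaled to UMIs outside the 7 globins, and their intervals came from the exact binomial interval of the counts. The genes named are the members, the leading genes of each list in the ratio of erythroid to other cells, the 10 genes most like the summed globins, and 5 genes per direction with the largest stage ratios. List genes named for their stage ratio, and Sox6, Lin28b, Myb, and Hbb-bh2, were chosen after their values were seen. A few genes that these rules select are not reported here. No p-value was computed. The ratio step was tested on simulated data.

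Alternatives were limits of 10% and 50% globin, the study's limits on cells, leaving out the cell with the most globin UMIs, means over cells, thinning to 2000 UMIs, scaling to all UMIs or with TMM factors from edgeR 4.0.16 in R 4.3.3, a minimum of 1 UMI, and a 4-fold limit. Positions came from GENCODE on GRCm38, which held 99.6% of the identifiers, and promoters from RefSeq on GRCm38.p6. Python 3.11.15, numpy 2.4.6, scipy 1.17.1, pandas 2.3.3, matplotlib 3.10.9, and Biopython 1.88 were used.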

Additional observations from a re-analysis of the deposited data

How the results depend on the processing

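No paired analysis was possible because each group had 1 library and no replicate numbers. The order of the stages in the adult beta-like, Hbb-bh1, and Hba-x shares held in 12 of 15 comparisons over the limits on globin, the limits on cells, the top cell, and the means over cells, and that of the 7 genes in 28 of 35, and the exceptions among these were under the study's limits on cells, which left 1 cell at E12.5. With that cell, the adult beta-like share was 7.42%, the Hbb-bh1 share 7.48%, the Hba-x share 38.2%, and the Hbb-y share 56.9%, and at E10.5 the adult share was 0.940%. With a limit of 50% globin, the adult, Hbb-bh1, Hba-x, and Hbb-y shares were 0.926%, 25.4%, 53.1%, and 46.7% at E10.5, and Hba-x was 27.3% at E11.5. As means over cells, the adult share was 9.67% at E11.5 and 18.1% at E12.5, the Hbb-bh1 share 26.3%, 7.08%, and 2.65%, the Hba-x share 52.4%, 27.1%, and 16.0%, and the Hbb-y share 52.3% and 49.3% at E11.5 and E12.5. Without the cell with the most globin UMIs, Hbb-bh1 was 6.51% and Hbb-y 51.8% at E11.5, and Hba-x was 15.6% at E12.5. Without the 3 cells of adult globins at E12.5, an alternative chosen after seeing the data, the adult share was 12.9%, Hba-x 16.2%, and Hbb-y 52.5%, above the 52.1% of E11.5, which turned the order of these stages for Hbb-y. Globin levels in other cells were 77.5, 128, and 101 CPM under 1% globin, 114, 264, and 160 after thinning, and 0, 109, and 74.0 as medians over cells, and under the study's limits 137 at E11.5 and 140 at E12.5. List genes higher at E11.5 numbered 1 on all UMIs, 1 past 4-fold, and 24 without cells with somatic markers, an alternative also chosen after seeing the data, and lower ones 20 on all UMIs and 10 with TMM factors. At E12.5, 2 were higher and 47 lower on all UMIs, and 10 and 5 past 4-fold. The 23 to 61 erythroid cells and the 69727 to 486481 UMIs outside their globins limit the list comparisons, and differences between embryos were not measured.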
